A study of Bos taurus with 96 samples.

Results

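The liver of 16 Holstein dairy cows was compared between late pregnancy (LP, day -18 relative to calving) and early lactation (EL, day 1), with both samples taken from the same animal. The comparison used the liver libraries of these 2 time-points, 32 of the 96 libraries in the series, 16 at LP and 16 at EL, chosen by tissue and time-point. Of the 16 cows, 8 were Fert+ and 8 were Fert-, animals chosen for good and for poor genetic merit for fertility (calving interval) with similar merit for milk production. Both genotypes were pooled and each cow served as its own control. All cows were of first or second parity and were kept as 1 herd. The study gives the days of sampling with an SD, so they varied between cows. No label names the day of a single cow. A puncture biopsy holds every cell type of the organ, so that in these bulk samples fewer cells of a type and less RNA per cell cannot be told apart.

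Around calving the liver of a dairy cow turns from supporting the fetus to supporting milk synthesis. The ruminant gut delivers little glucose, so the liver makes it from propionate, lactate, glycerol and amino acids, while fatty acids released from adipose tissue reach the liver to be oxidised, made into ketone bodies or stored. Hepatocytes also secrete most plasma proteins. In the acute-phase response, cytokines such as interleukin-6 raise the synthesis of positive acute-phase proteins (haptoglobin, serum amyloid A, fibrinogen) while that of negative ones (albumin, transthyretin, transferrin) falls. Growth hormone acting on the liver drives the synthesis of insulin-like growth factor 1, a link that is known to loosen at the onset of lactation.

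Total counts on genes ran from 14966847 to 24338724 (median 18379831) at LP and from 15821057 to 26358063 (median 20967191) at EL, and 15403 to 16392 genes were detected per library. Markers of hepatocytes were found in every library, with a summed level of 35978 to 173314 CPM (a gene's counts relative to the library total, TMM-scaled) at LP and 23088 to 135930 CPM at EL. The summed level of skeletal muscle markers was at most 0.277 CPM. In 5 of the 32 libraries, from 4 cows, 19 genes were counted that stood near 0 in the others. No label names a batch for these libraries, which are called the libraries with the 19 genes.

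The libraries labelled cow 426, a Fert- animal, went against the other cows in liver. Its EL minus LP difference in log2(CPM + 1) correlated with the mean difference of the other 15 cows at r = -0.60 across 13053 genes, which are not independent replicates. For the other cows this correlation ran from -0.26 in Fert+ cow 3434 to 0.62 in Fert- cow 164, and only cows 426 and 3434 were below 0. In muscle the same measure was 0.82 for cow 426 and 0.67 for cow 3434, within the range of 0.47 to 0.86 over the 16 cows. Among the 594 genes called without cow 426 (below), 557 differed in the opposite direction in that cow and 37 in the same direction. When the same count was made for each other cow from the genes called in the remaining 14, 41.7% differed the same way in cow 3434, 54.7% in cow 430, and between 65.1% and 97.0% in the other 13 cows. The cause of the opposite difference in cow 426 was not tested. Whether the time-points of its liver libraries are labelled correctly could not be settled here, so that its LP and EL values are those of the libraries labelled so. They were kept in the comparison as labelled, and calls are also given without this cow. That cow was singled out by the same values that are then tested, so adjusted p-values without it are no independent evidence.

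**Figure D1:**
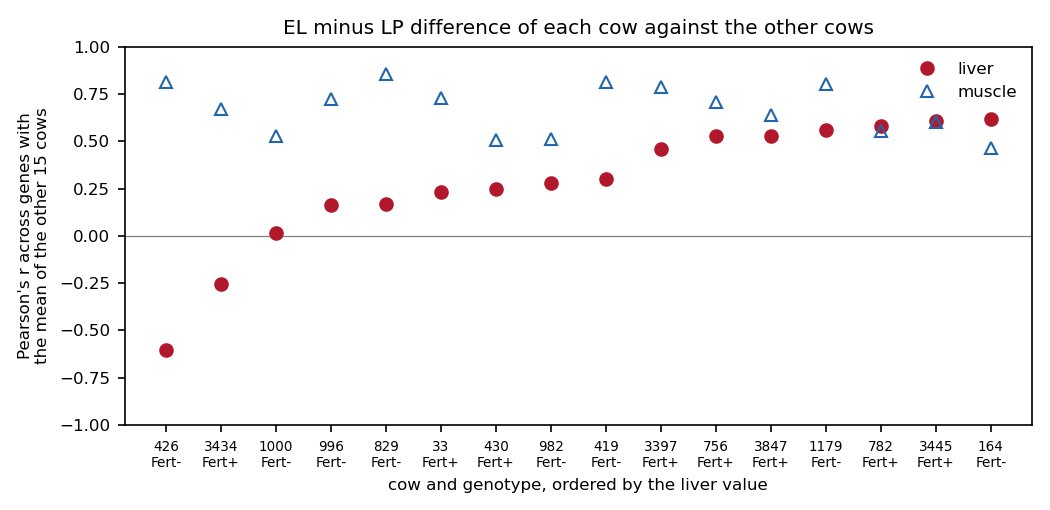
For each of the 16 cows (horizontal axis, ordered by the liver value), Pearson's r across genes between its EL minus LP difference and the mean difference of the other 15 cows, in liver (filled circles) and muscle (open triangles). In liver cow 426 lies at -0.60 and cow 3434 at -0.26, whereas in muscle all cows lie between 0.47 and 0.86.

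Across all 16 cows, the genes with the smallest p-values included HP and PC, which were higher at EL, and ACTA2 and AOX1, which were lower. No gene passed the test. The quasi-likelihood test of edgeR with cow as a term called 0 of 13053 genes (0%) at an adjusted p under 0.05, with a smallest adjusted p of 0.0735. Before adjustment 2102 genes (16.1%) had a p under 0.05, of which 984 were higher and 1118 lower at EL. On the same libraries limma voom and an exact signed-rank test also called 0 genes, DESeq2 called 160 higher and 288 lower, and a likelihood ratio test with 1 common dispersion called 374 higher and 524 lower. Without cow 426, 594 of 13055 genes (4.55%) were called, 263 higher (2.01%) and 331 lower (2.54%) at EL, with a smallest adjusted p of 5.23e-05. No other single cow moved the count above 1. Leaving out cow 3434 as well gave 389 genes higher and 446 lower, and over the other 14 cows the count without cow 426 and 1 further cow ran from 234 to 636. Of the 448 genes called by DESeq2 in all 16 cows, 374 were among the 594 (83.5% of the first list and 63.0% of the second), all with the same sign. The median size of the log2 fold change among the 594 genes was 0.598.

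The number and the split of these calls depended on the fit. Without cow 426, leaving out the pairing by cow (no replicate block) gave 423 genes higher and 213 lower, and leaving out the cows with a library holding the 19 genes gave 33 and 40. Upper-quartile factors gave 214 genes higher and 435 lower, and library totals alone gave 183 and 192. The median log2 fold change of all genes over 16 cows was 0.01 with the factors used here, -0.03 with upper-quartile factors and 0.03 with library totals. Of the 13053 genes tested 1759 could be given a symbol, and the genes below are named from those. Below, "rose" and "fell" are used only of genes called without cow 426, and all other statements give values. Counts within gene lists are to be read against the shares over all genes, 16.1% at an unadjusted p under 0.05 and, without cow 426, 4.55% called (2.01% higher, 2.54% lower). Every list member comes from the tested genes with a symbol, whose shares were larger than those over all genes. Of 1759 such genes, 178 were higher and 251 lower at an unadjusted p under 0.05 in 16 cows. Without cow 426, 60 of 1760 such genes were called higher and 89 lower.

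The 6 genes with the smallest p-values among those higher at EL in 16 cows were CGREF1, CYP11A1, REEP5, PC, HP and LDHB. CGREF1, a secreted calcium-binding growth regulator, ran from 0.864 to 6.22 CPM (median 1.79) at LP and from 2.01 to 7.11 CPM (median 4.197) at EL and was higher at EL in 13 of 16 cows (log2 fold change 0.97 ± 0.23, adjusted p = 0.124). CYP11A1, the enzyme that opens steroid synthesis by cutting the side chain of cholesterol, ran from 5.48 to 287 CPM (median 36.0) at LP and from 21.1 to 296 CPM (median 81.4) at EL (log2 fold change 1.54 ± 0.36, adjusted p = 0.124). It was higher at EL in all cows but 426, where it went from 287 to 27.2 CPM, so that the highest LP value belonged to that cow. REEP5, which shapes the membrane of the endoplasmic reticulum, had medians of 25.6 CPM at LP and 44.7 CPM at EL and was higher in 14 of 16 cows (log2 fold change 0.76 ± 0.19). LDHB, a subunit of lactate dehydrogenase, had medians of 296 CPM at LP and 492 CPM at EL and was also higher in 14 (log2 fold change 0.71 ± 0.19). PC and HP are described with their groups. All 6 rose without cow 426, with log2 fold changes of 1.10 for CGREF1, 1.75 for CYP11A1, 0.86 for REEP5 and 0.85 for LDHB, and adjusted p-values between 0.00213 (LDHB) and 0.0156 (REEP5).

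The 6 genes with the smallest p-values among those lower at EL were ACTA2, AOX1, KIAA1324, GSTM2, SLC17A4 and TPM2. ACTA2, the actin of smooth muscle and of activated stellate cells, ran from 26.0 to 208 CPM (median 93.7) at LP and from 19.6 to 83.2 CPM (median 41.3) at EL. It was lower at EL in 15 of 16 cows, the exception being cow 426 with 26.0 to 83.2 CPM (log2 fold change -1.19 ± 0.22, adjusted p = 0.118). TPM2, a tropomyosin of contractile filaments, had medians of 15.4 CPM at LP and 7.94 CPM at EL and was lower in 14 cows (log2 fold change -0.68 ± 0.16). AOX1, aldehyde oxidase, ran from 850.1 to 3042 CPM (median 2396) at LP and from 372 to 2745 CPM (median 1193) at EL and was lower in 13 cows (log2 fold change -1.02 ± 0.22, adjusted p = 0.124). GSTM2, a glutathione transferase, ran from 25.2 to 214 CPM (median 71.7) at LP and from 1.15 to 146 CPM (median 29.6) at EL and was lower in 15 cows (log2 fold change -1.65 ± 0.37, adjusted p = 0.124). SLC17A4, an organic anion transporter, had medians of 83.2 CPM at LP and 52.1 CPM at EL (log2 fold change -0.64 ± 0.14), and KIAA1324 had medians of 2.10 CPM at LP and 0.600 CPM at EL (log2 fold change -1.63 ± 0.37, with -2.57 in Fert+ cows alone and -0.64 in Fert- cows alone). For both, 14 of 16 cows were lower at EL. Without cow 426 all 6 fell, by between 0.71 (SLC17A4) and 1.83 (GSTM2) on the log2 scale, with adjusted p-values between 0.000162 (ACTA2) and 0.0106 (KIAA1324).

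**Figure D2:**
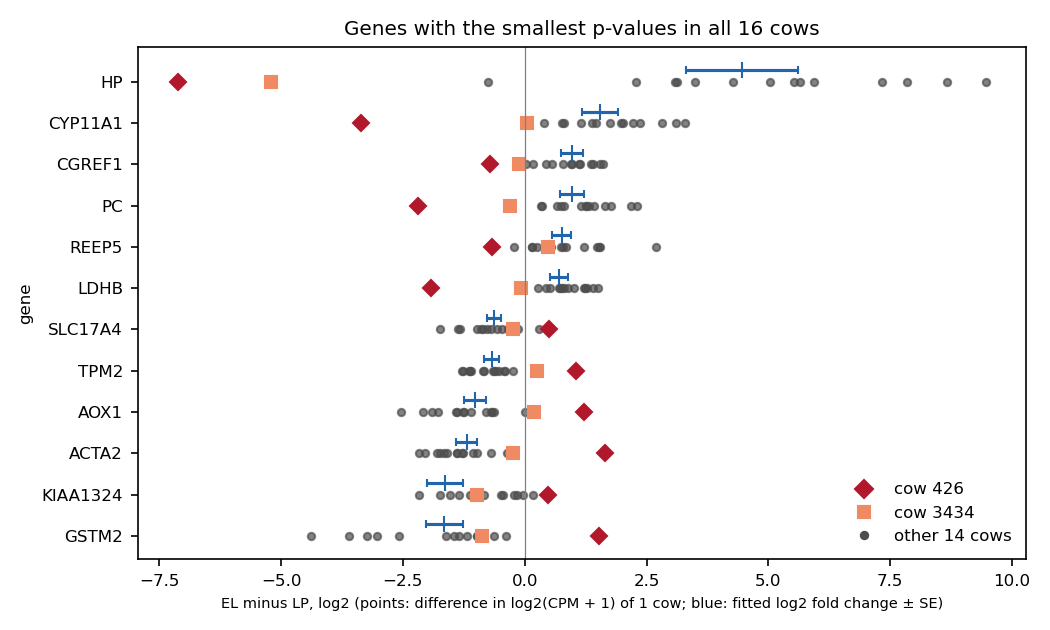
EL minus LP difference in log2(CPM + 1) (horizontal axis) of each cow for the 12 genes with the smallest p-values (vertical axis), with the fitted log2 fold change over 16 cows and its SE in blue. Cow 426 (diamonds) lies on the other side of 0 from the fitted value for each of the 12 genes, and cow 3434 (squares) does so for HP, CGREF1, PC, LDHB, TPM2 and AOX1.

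The positive acute-phase proteins, which rise in plasma in inflammation, were nearly all higher at EL. Of those listed 23 could be matched and tested, and their fitted log2 fold changes in 16 cows ran from 0.00 (ITIH3, with no direction at this size) to 4.46 (HP), with a median of 0.76 against 0.01 for all genes. At an unadjusted p under 0.05, 16 of 23 were higher and 0 lower, against 16.1% of all genes in either direction. Without cow 426, 8 of 23 rose and 0 fell, against 2.01% and 2.54% of all genes. They were HP, SAA1, SAA2, ITIH4, HAMP, SAA4, SERPINA3-1 and CP. HP, haptoglobin, which binds free haemoglobin, ran from 53.2 to 40839 CPM (median 587) at LP and from 50.9 to 52074 CPM (median 13054) at EL. It was higher at EL in 13 of 16 cows (log2 fold change 4.46 ± 1.16, adjusted p = 0.130) and rose without cow 426 (4.79 ± 0.98, adjusted p = 0.0132). With the pairing by cow left out (no replicate block) its log2 fold change was 1.76 in 16 cows and 2.74 without cow 426, and without the cows with a library holding the 19 genes it was 3.36. The groups overlapped. Cows 426 and 430 stood at 40839 and 32191 CPM at LP, well above the next cow at 1928 CPM, and at EL cows 3434, 426 and 996 were lowest at 50.9, 294 and 1067 CPM.

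**Figure D3:**
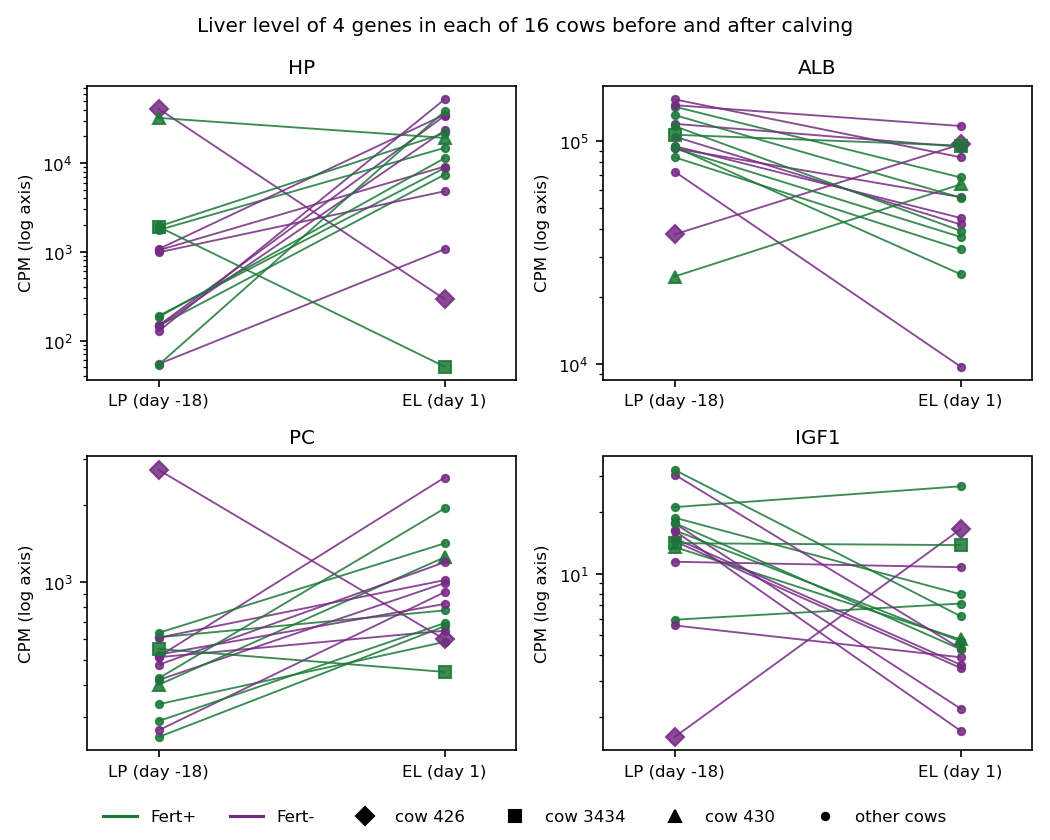
Levels of HP, ALB, PC and IGF1 in liver (CPM, log axis) at LP and EL, 1 line per cow, coloured by genotype. HP was higher at EL in 13 of 16 cows, ALB in 2, PC in 14 and IGF1 in 3, and cow 426 (diamonds) went the other way from most cows in all 4 panels.

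SAA1 and SAA2, the serum amyloid A proteins carried on lipoproteins, are neighbouring genes of near-identical sequence, and their reads may be split between them. SAA1 ran from 61.6 to 5541 CPM (median 378) at LP and from 119.8 to 5173 CPM (median 2114) at EL, and SAA2 ran from 43.8 to 5453 CPM (median 312) at LP and from 108.4 to 7254 CPM (median 1556) at EL. Each was higher at EL in 13 of 16 cows, and without cow 426 they rose by 2.29 ± 0.52, adjusted p = 0.0210 (SAA1) and 2.74 ± 0.63, adjusted p = 0.0229 (SAA2) on the log2 scale. ITIH4, an inter-alpha-trypsin inhibitor heavy chain, had medians of 2431 CPM at LP and 6673 CPM at EL and rose without cow 426 (1.49 ± 0.34, adjusted p = 0.0206). HAMP, hepcidin, the hormone that blocks iron release into plasma, had medians of 43.5 CPM at LP and 108.2 CPM at EL and rose as well (1.38 ± 0.37, adjusted p = 0.0423). The fibrinogen chains FGA, FGB and FGG, which form the clot protein, were each higher at EL in 11 of 16 cows. Their medians were 15916 CPM at LP and 28849.6 CPM at EL for FGA, 21358 CPM at LP and 37374 CPM at EL for FGB and 15658 CPM at LP and 29547 CPM at EL for FGG, with log2 fold changes of 0.69 ± 0.28, 0.65 ± 0.28 and 0.68 ± 0.29. None of the 3 was called with or without cow 426, where their adjusted p-values were 0.0607 (FGA), 0.0791 (FGB) and 0.0768 (FGG). LBP, which presents bacterial lipopolysaccharide, was higher in 12 cows (medians 266 CPM at LP and 916 CPM at EL) and was not called either. AGP and CRP had log2 fold changes of only 0.36 ± 0.40 and 0.30 ± 0.21. At EL the highest value of 15 of the 23 genes was in cow 164, and at LP cow 426 held the highest value of 13.

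Of 15 genes of cytokine signalling listed, only 4 were matched, and all 4 had higher fitted levels at EL over the 16 cows. PIM1, a kinase induced through STAT3, had medians of 15.02 CPM at LP and 25.8 CPM at EL, was higher in 13 of 16 cows and rose without cow 426 (0.87 ± 0.22, adjusted p = 0.0327). SOCS3, the feedback inhibitor of that pathway, had medians of 3.60 CPM at LP and 7.70 CPM at EL (log2 fold change 1.01 ± 0.48), BCL3 of 6.93 CPM at LP and 9.77 CPM at EL (0.83 ± 0.33) and JUNB of 11.1 CPM at LP and 13.9 CPM at EL (0.69 ± 0.35). SOCS3 and BCL3 were higher at EL in 11 of 16 cows each and JUNB in 9, and these 3 were not called in either set of cows. At EL, cows 164 and 3847 stood far above the medians, at 64.2 and 63.9 CPM for BCL3 and at 127 and 95.4 CPM for JUNB.

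The plasma carrier proteins lay on the other side. All 8 of the tested carriers had lower fitted levels at EL in 16 cows (median log2 fold change -0.65), all 8 at an unadjusted p under 0.05, and without cow 426 5 of the 8 fell. ALB, albumin, ran from 24631 to 152887 CPM (median 99319) at LP and from 9738 to 116192 CPM (median 55679.6) at EL and was lower in 14 of 16 cows (log2 fold change -0.86 ± 0.26, adjusted p = 0.147). Its exceptions were cow 426, from 38014 to 96089.7 CPM, and cow 430, from 24631 to 63625 CPM, the same cows that held the high LP values of HP. Without cow 426 ALB fell by 0.99 ± 0.23 on the log2 scale (adjusted p = 0.0241). TTR, transthyretin, which carries thyroxine and retinol-binding protein, had medians of 3456 CPM at LP and 1495 CPM at EL and fell (-1.17 ± 0.22, adjusted p = 0.0103). TF, transferrin, the iron carrier, had medians of 17606 CPM at LP and 11879.7 CPM at EL and fell (-0.67 ± 0.13, adjusted p = 0.0130). AHSG, fetuin A, had medians of 2673 CPM at LP and 1611 CPM at EL, and HRG, histidine-rich glycoprotein, 1721 CPM at LP and 728 CPM at EL, and both fell, by 0.80 and 1.23 on the log2 scale. GC, the vitamin D carrier, and RBP4, the retinol carrier, were lower at EL in 14 and 12 of 16 cows (log2 fold changes -0.25 ± 0.09 and -0.39 ± 0.16) and were not called.

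Complement and coagulation proteins, also made by hepatocytes, were mostly lower at EL in the fit. Of 23 complement genes tested 19 were lower and 4 higher at EL in the fit of 16 cows, with a median log2 fold change of -0.18. At an unadjusted p under 0.05 there were 5 of the 23, all lower, against 16.1% of all genes in either direction. Of the 1759 genes with a symbol, 178 were higher and 251 lower at that level, together a larger share than 5 of 23. VTN, vitronectin, and CFI, the protease that inactivates C3b, 2 of the 23, fell without cow 426 (2.54% of all genes fell), by 0.42 and 0.40 on the log2 scale. C3, the component on which all complement pathways converge, ran from 16096 to 32927 CPM (median 24939) at LP and from 10205 to 33664 CPM (median 20159.5) at EL (log2 fold change -0.33 ± 0.15, adjusted p = 0.292). CFB had medians of 5851 CPM at LP and 5192 CPM at EL, with a log2 fold change of -0.12 ± 0.10. Of 13 coagulation genes 9 were lower and 6 had an unadjusted p under 0.05 (16.1% of all genes), and F9, clotting factor IX, alone fell without cow 426 (-0.36 ± 0.09, adjusted p = 0.0373). F2, prothrombin, and PLG, plasminogen, had log2 fold changes of 0.01 ± 0.09 and 0.03 ± 0.10.

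In gluconeogenesis PC, LDHB and MDH1 rose without cow 426, and PCK1, G6PC and FBP1 were not called. PC, pyruvate carboxylase, which makes oxaloacetate from pyruvate, ran from 251 to 2727 CPM (median 495) at LP and from 449 to 2546 CPM (median 869) at EL. It was higher at EL in 14 of 16 cows (log2 fold change 0.97 ± 0.25, adjusted p = 0.130), and the exceptions were cow 426, from 2727 to 600.1 CPM, and cow 3434, from 551 to 449 CPM. Without cow 426 PC rose (1.13 ± 0.18, adjusted p = 0.00381). In 13 of those 15 cows the EL value was above every LP value of the 15. Over all 16 cows no EL value was above the highest LP value, which was that of cow 426. LDHB, given above, rose as well, and MDH1, the cytosolic malate dehydrogenase, rose by 0.45 ± 0.11, adjusted p = 0.0294 on the log2 scale. SDS, serine dehydratase, was higher in 12 cows (medians 10.7 CPM at LP and 19.2 CPM at EL) with a wide error (log2 fold change 1.01 ± 0.52). PCK1, the cytosolic phosphoenolpyruvate carboxykinase that commits carbon to glucose, ran from 1833 to 5094 CPM (median 3503) at LP and from 463 to 5593 CPM (median 3251) at EL and was higher in 8 and lower in 8 cows (log2 fold change -0.41 ± 0.25, adjusted p = 0.425). G6PC, which releases free glucose, had medians of 439 CPM at LP and 502 CPM at EL (log2 fold change 0.03 ± 0.20). FBP1 and MUT, the methylmalonyl-CoA mutase of the propionate route, had log2 fold changes of -0.37 ± 0.18 and -0.31 ± 0.13. Over the 16 genes tested, 10 were higher and 6 lower, the median log2 fold change was 0.10, and 3 rose and 0 fell without cow 426.

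In the urea cycle 2 of 5 genes were called without cow 426, in opposite directions, against 4.55% of all genes. OTC, ornithine transcarbamylase, had medians of 294 CPM at LP and 180.3 CPM at EL and fell (-0.94 ± 0.19, adjusted p = 0.0132). ARG1, arginase, which releases urea, had medians of 349.6 CPM at LP and 551 CPM at EL and rose (0.79 ± 0.15, adjusted p = 0.0106). CPS1, which starts the cycle, had a log2 fold change of -0.04 ± 0.12 over 16 cows.

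The somatotropic axis held both directions. IGF1, the growth factor made in liver under growth hormone, ran from 1.59 to 32.1 CPM (median 15.5) at LP and from 1.71 to 26.7 CPM (median 4.72) at EL, lower at EL in 13 of 16 cows (log2 fold change -1.25 ± 0.38, adjusted p = 0.149). It fell without cow 426 (-1.46 ± 0.29, adjusted p = 0.0130). In 9 of those 15 cows the EL value was below every LP value of the 15. Over all 16 cows no EL value was below the lowest LP value, which was that of cow 426. In cow 426 IGF1 went from 1.59 to 16.5 CPM. IGFBP1, a binding protein that is held down by insulin, ran from 19.96 to 2487 CPM (median 164) at LP and from 123 to 878 CPM (median 457) at EL and was higher in 14 of 16 cows (log2 fold change 1.46 ± 0.44, adjusted p = 0.149). It rose without cow 426 (1.67 ± 0.32, adjusted p = 0.0114), whose own level went from 2487 to 123 CPM. SOCS2, a feedback inhibitor of growth hormone signalling, had medians of 36.3 CPM at LP and 46.8 CPM at EL, was higher in 13 cows and rose (0.66 ± 0.18, adjusted p = 0.0457). IGF2, IGFBP2 and IGFBP4 had log2 fold changes of -0.09 ± 0.11, 0.03 ± 0.22 and 0.12 ± 0.12. GHR, the growth hormone receptor, was among the 9 listed genes that could not be matched to an identifier.

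Most genes that make fatty acids and sterols had lower fitted levels at EL. In fatty acid and triglyceride synthesis 8 of 9 genes were lower (median log2 fold change -0.82), 6 of them at an unadjusted p under 0.05, and without cow 426 FADS2 and DGAT2 fell. FADS2, the delta-6 desaturase, ran from 44.6 to 1696 CPM (median 986) at LP and from 10.7 to 1661 CPM (median 175) at EL (log2 fold change -2.20 ± 0.77, adjusted p = 0.197) and fell by 2.49 ± 0.68 (adjusted p = 0.0450). DGAT2, which joins the last fatty acid to a triglyceride, had medians of 40.2 CPM at LP and 30.1 CPM at EL and fell (-0.68 ± 0.18, adjusted p = 0.0370). SCD, FASN and ACSS2, which encode the stearoyl-CoA desaturase, the fatty acid synthase and an acetyl-CoA synthetase, had medians of 29.2 CPM at LP and 10.6 CPM at EL (SCD), 34.3 CPM at LP and 13.4 CPM at EL (FASN) and 43.1 CPM at LP and 10.8 CPM at EL (ACSS2). Their log2 fold changes were -1.52 ± 0.69, -0.82 ± 0.36 and -1.11 ± 0.43, and they were not called.

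All 8 genes of cholesterol synthesis and uptake were lower at EL (median log2 fold change -0.70), 7 at an unadjusted p under 0.05, and 3 fell without cow 426, of which HMGCS1 and SQLE are described. HMGCS1, which makes HMG-CoA for the sterol route, ran from 86.9 to 713 CPM (median 412) at LP and from 33.1 to 726 CPM (median 112) at EL and was lower in 12 of 16 cows (log2 fold change -1.24 ± 0.34, adjusted p = 0.136). It fell without cow 426 (-1.42 ± 0.30, adjusted p = 0.0149), as did SQLE, the squalene epoxidase (-0.80 ± 0.21, adjusted p = 0.0399).

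Among 14 lipoprotein genes 11 were lower and 3 higher in 16 cows (median log2 fold change -0.32). APOA2, APOC3, PON1 and APOH fell without cow 426, by between 0.56 (APOH) and 0.62 (APOC3) on the log2 scale. APOA1, the main protein of high-density lipoprotein, went the other way, with medians of 279 CPM at LP and 449.7 CPM at EL, and rose (0.86 ± 0.22, adjusted p = 0.0385). APOB, the structural protein of very-low-density lipoprotein, had medians of 2138 CPM at LP and 2046 CPM at EL (log2 fold change -0.30 ± 0.15), and APOE had a log2 fold change of -0.04 ± 0.12. The 5 genes of bile acid synthesis and transport were all lower, with a median log2 fold change of -0.67 and 3 at an unadjusted p under 0.05, and none was called without cow 426. CYP7A1, the rate-limiting enzyme of bile acid synthesis, ran from 36.9 to 255 CPM (median 124) at LP and from 0.733 to 535 CPM (median 81.8) at EL (log2 fold change -1.17 ± 0.57, adjusted p = 0.319). SLC10A1, which takes bile acids up from blood, had medians of 1088 CPM at LP and 813 CPM at EL (log2 fold change -0.67 ± 0.28).

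Of the fatty acid oxidation genes more were lower than higher at EL. Of 11 tested 8 were lower and 3 higher (median log2 fold change -0.35), and 4 were lower at an unadjusted p under 0.05. HADH, the short-chain hydroxyacyl-CoA dehydrogenase, fell without cow 426 (-0.61 ± 0.17, adjusted p = 0.0475). ACADVL, which starts the oxidation of long chains, had medians of 467 CPM at LP and 554 CPM at EL and was higher in 11 cows (log2 fold change 0.25 ± 0.13). Of the PPARA and fasting list 5 of 14 genes were matched, with 2 higher and 3 lower. PDK4, the kinase that shuts off pyruvate dehydrogenase in fasting, ran from 49.3 to 989.7 CPM (median 103) at LP and from 14.1 to 515 CPM (median 86.002) at EL. It was higher at EL in 9 and lower in 7 cows (log2 fold change -0.50 ± 0.35, adjusted p = 0.487), and the highest LP value, 989.7 CPM, was that of cow 426. ANGPTL4, an inhibitor of lipoprotein lipase, had medians of 69.5 CPM at LP and 72.9 CPM at EL (log2 fold change 0.50 ± 0.28). CPT1A was not among the matched genes.

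The unfolded protein response raises the folding capacity of the endoplasmic reticulum when secretory proteins accumulate. Of 16 genes of this response and of amino acid stress, 14 were higher and 2 lower at EL in 16 cows (median log2 fold change 0.63), with 8 higher and 1 lower at an unadjusted p under 0.05. P4HB and PDIA3, protein disulphide isomerases, rose without cow 426. P4HB ran from 1240.5 to 3653 CPM (median 1521) at LP and from 1279 to 4204 CPM (median 2388) at EL and rose by 0.72 ± 0.14, adjusted p = 0.0109 on the log2 scale, and PDIA3 had medians of 475 CPM at LP and 724 CPM at EL and rose by 0.66 ± 0.17, adjusted p = 0.0391. The EL library of cow 3847, one of the libraries with the 19 genes, held the highest EL value of 14 of the 16 genes. For GRP78, the master chaperone BiP, it stood at 9972 CPM against a next highest of 2279 CPM, and for HSP90B1 at 13641 against 3909 CPM. GRP78 had medians of 575 CPM at LP and 693 CPM at EL (log2 fold change 0.60 ± 0.36) and was higher in 10 of 16 cows. PSAT1, an enzyme of serine synthesis, was the gene lower at an unadjusted p under 0.05 (medians 336 CPM at LP and 192 CPM at EL, log2 fold change -0.64 ± 0.24). Without cows 426 and 3847 the count over all genes was 281 higher and 355 lower, and 515 of the 594 genes were again called.

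Metallothioneins, which bind zinc and copper, varied widely between cows and were not called. MT1A ran from 2.78 to 1144 CPM (median 67.1) at LP and from 19.002 to 1751 CPM (median 359.9) at EL and was higher in 10 of 16 cows (log2 fold change 1.74 ± 0.89, adjusted p = 0.336), and MT2 had medians of 118 CPM at LP and 270.1 CPM at EL (log2 fold change 0.96 ± 0.61). TFRC, the transferrin receptor that takes iron into cells, had medians of 65.6 CPM at LP and 47.0 CPM at EL and fell without cow 426 (-0.60 ± 0.12, adjusted p = 0.0132), while FTL, a ferritin chain, had a log2 fold change of 0.06 ± 0.12. Of the 14 oxidative defence genes, GPX3, the glutathione peroxidase of plasma, had the largest log2 fold change. It ran from 11.2 to 5698 CPM (median 98.1) at LP and from 34.8 to 3527 CPM (median 1049) at EL, was higher in 13 of 16 cows (log2 fold change 3.18 ± 0.90, adjusted p = 0.140) and rose without cow 426 (3.496 ± 0.78, adjusted p = 0.0200). The glutathione transferases GSTA2 and GSTM3 fell, by 0.88 and 0.69 on the log2 scale, and CAT, catalase, had medians of 6523 CPM at LP and 4424 CPM at EL (log2 fold change -0.78 ± 0.27). Members of these transferase, cytochrome P450, SERPINA3 and metallothionein families resemble each other, and how reads were shared between them was not examined.

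Genes of drug and retinoid oxidation were lower at EL, 13 of 14 in 16 cows (median log2 fold change -0.56) and 9 at an unadjusted p under 0.05. CYP2C19, CYP2E1, AOX1 and CYP1A2 fell without cow 426. CYP2E1, which oxidises ethanol and ketones, ran from 1896 to 6688 CPM (median 4364) at LP and from 87.9 to 5416 CPM (median 2138) at EL and fell (-1.25 ± 0.33, adjusted p = 0.0399). CYP1A2 was lower in 15 of 16 cows, with medians of 3204 CPM at LP and 2004 CPM at EL, and fell (-1.04 ± 0.22, adjusted p = 0.0152). CYP2C19 had medians of 1759.7 CPM at LP and 601 CPM at EL and fell (-1.87 ± 0.40, adjusted p = 0.0156). The lowest EL value of 12 of the 14 genes was that of cow 3847. Of 6 glucocorticoid response genes, HSD11B1, which regenerates active cortisol, fell (-0.67 ± 0.15, adjusted p = 0.0208), whereas FKBP5 and SGK1, induced by cortisol, had medians of 17.6 CPM at LP and 35.5 CPM at EL (FKBP5) and 68.0 CPM at LP and 95.6 CPM at EL (SGK1) and were not called. Of the clock list PER1 and NR1D1 were matched, with log2 fold changes of -0.28 ± 0.26 and 0.34 ± 0.27. The 13 mitochondrially encoded proteins ranged from -0.33 (ND1) to 0.02 (COX1), and 2 were lower at an unadjusted p under 0.05, a share near the 16.1% of all genes. Among 18 cell cycle genes none reached an unadjusted p under 0.05, and the log2 fold changes ran from -0.17 to 0.36.

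**Figure D4:**
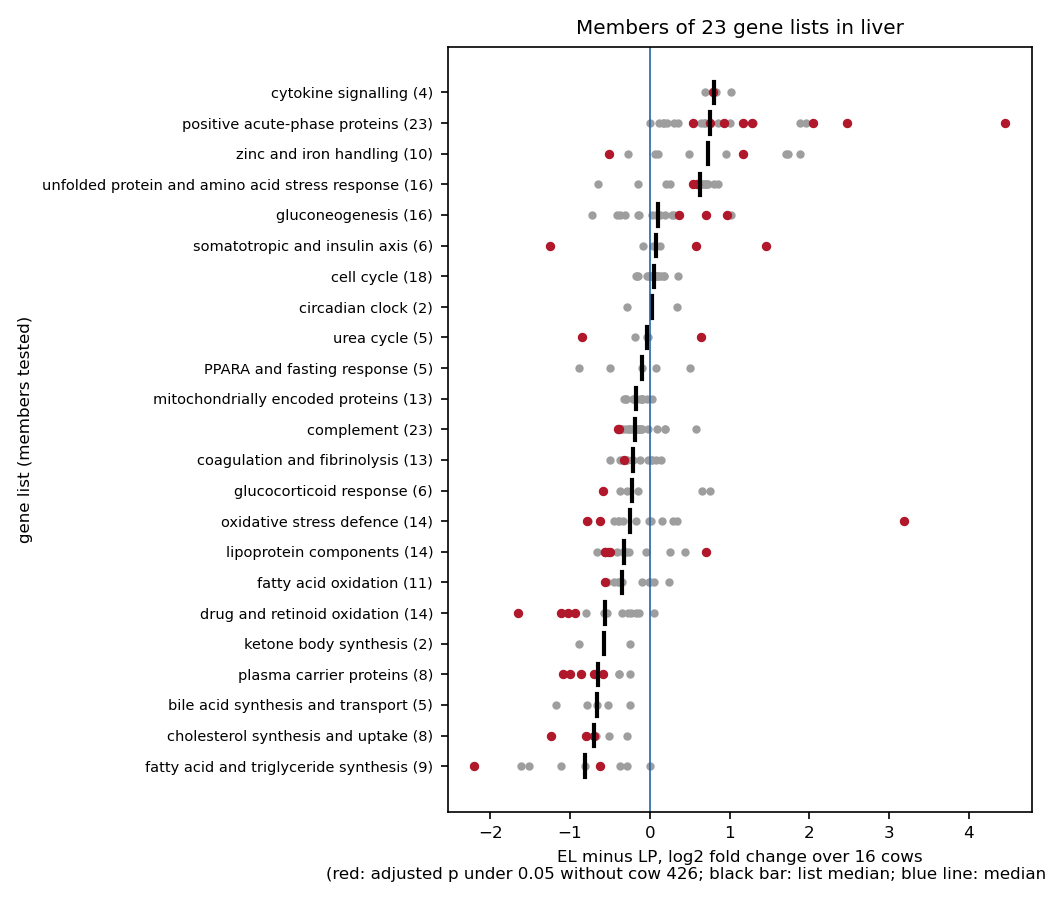
Log2 fold changes over 16 cows (horizontal axis, EL minus LP) of the members of 23 gene lists (vertical axis, number tested in brackets), with list medians as black bars and genes called without cow 426 in red. The acute-phase genes lie at 0 (ITIH3) or above it, and all 8 carrier and all 8 cholesterol genes lie below it.

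Outside the lists, CGN1, PPP1R3C, FST, WFS1 and SLC17A9 were named for the size of their change without cow 426, and MID1IP1 and PTGDR for a small p. CGN1, conglutinin, a plasma collectin of cattle that binds complement fragments, ran from 39.6 to 2595 CPM (median 471) at LP and from 21.8 to 647 CPM (median 96.7) at EL and fell (-2.48 ± 0.40, adjusted p = 0.00424). PPP1R3C, which directs protein phosphatase 1 to glycogen, had medians of 146 CPM at LP and 65.2 CPM at EL and fell (-1.25 ± 0.25, adjusted p = 0.0130). In cow 426 it went from 3.98 to 206 CPM. MID1IP1, which activates acetyl-CoA carboxylase, had medians of 43.1 CPM at LP and 22.3 CPM at EL, was lower in 15 of 16 cows and fell (-0.99 ± 0.09, adjusted p = 5.23e-05). FST, follistatin, which binds activin, had medians of 2.18 CPM at LP and 4.58 CPM at EL and rose (1.19 ± 0.22, adjusted p = 0.00998). WFS1, wolframin of the endoplasmic reticulum, had medians of 11.7 CPM at LP and 17.5 CPM at EL and rose (1.30 ± 0.31, adjusted p = 0.0278), with 259 CPM in cow 3847 at EL against a next highest of 107.7 CPM. SLC17A9, a vesicular nucleotide transporter, had medians of 13.9 CPM at LP and 31.8 CPM at EL and rose (1.35 ± 0.29, adjusted p = 0.0163), and PTGDR, a prostaglandin D2 receptor, had medians of 1.75 CPM at LP and 1.11 CPM at EL and fell (-0.74 ± 0.12, adjusted p = 0.00370). In mean level, HP, ITIH4 and SERPINA3-1 had the largest increases in CPM, and ALB, TF and CYP2E1 the largest decreases, among named genes called without cow 426.

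Markers of other cells in the biopsy gave the following values. The 8 matched neutrophil markers summed to 10.1 to 40.1 CPM (median 19.2) at LP and 12.9 to 327 CPM (median 28.03) at EL, higher at EL in 12 of 16 cows, with the highest sums in cow 164 (327 CPM) and the next at 187 CPM. In cow 426 this sum went from 39.7 to 13.7 CPM. Of these, 4 passed the filter and 4 averaged under 1 CPM, and LTF, lactoferrin, rose without cow 426 (0.79 ± 0.22, adjusted p = 0.0464), while S100A8 had medians of 0.559 CPM at LP and 0.961 CPM at EL. The 5 markers of stellate cells and fibroblasts summed to 90.0 to 372 CPM (median 222) at LP and 99.4 to 263 CPM (median 143) at EL, higher at EL in 2 of 16 cows, and ACTA2 and DCN, decorin, fell without cow 426. ACTA2 is itself one of these 5, and DCN had medians of 105 CPM at LP and 77.2 CPM at EL. The part of these cells in the acute-phase genes and in TPM2 was not tested. Kupffer cell and macrophage markers (3 matched) summed to 147 to 469 CPM (median 289) at LP and 134 to 450.1 CPM (median 243) at EL, endothelial markers (2) to 32.03 to 85.01 CPM (median 59.8) at LP and 43.7 to 80.5 CPM (median 60.8) at EL, and bile duct markers (4) to 16.2 to 58.7 CPM (median 27.1) at LP and 16.03 to 60.9 CPM (median 28.5) at EL. Sums for T, B and NK cells (3) were 13.7 to 96.1 CPM (median 26.9) at LP and 9.34 to 79.5 CPM (median 26.9) at EL, for erythroid cells (4) 6.19 to 29.004 CPM (median 11.3) at LP and 6.38 to 25.6 CPM (median 10.2) at EL and for adipocytes (4) 3.13 to 9.96 CPM (median 7.55) at LP and 4.03 to 16.6 CPM (median 7.18) at EL. No gene of these 6 lists was called with or without cow 426. Of 11 skeletal muscle genes, 2 were at 0 in all 32 libraries and none averaged 1 CPM.

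Mid-lactation (ML, day 147) libraries of the same cows give the levels a context, scaled together with LP and EL and with no test. HP had medians of 596 CPM at LP, 13252 at EL and 432 at ML, SAA1 of 384 CPM at LP, 2159.8 at EL and 423 at ML, and GPX3 of 99.1 CPM at LP, 1071 at EL and 125 at ML. ALB had medians of 100597 CPM at LP, 56519 at EL and 90688 at ML, HMGCS1 of 419 CPM at LP, 113 at EL and 521 at ML, FADS2 of 1001 CPM at LP, 178 at EL and 1546 at ML and CYP2C19 of 1787 CPM at LP, 609 at EL and 1500.4 at ML. For these 7 genes the median at ML was closer to that at LP than to that at EL. PC had medians of 500.3 CPM at LP, 884 at EL and 282 at ML, and IGF1 of 15.7 CPM at LP, 4.83 at EL and 12.8 at ML. ACTA2 had medians of 95.1 CPM at LP, 41.7 at EL and 44.1 at ML, near that at EL.

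Whether the genotypes differed in their difference between LP and EL was tested with an interaction term. The test called 0 of 13053 genes (0%), with a smallest adjusted p of 0.545. Before adjustment 1098 genes had p under 0.05, and DESeq2 also called 0. On simulated counts the test recovered 34 of 100 genes that differed 2-fold between genotypes and 97 of 100 that differed 4-fold. Those counts had 1 common dispersion for all genes and a cow effect shared by both time-points. In the real counts the SE of the interaction on the log2 scale was 0.39 for LDHB and 2.17 for HP. Recovery on simulated counts thus does not show that the test finds such differences in the real counts. An absence of calls therefore does not show that the genotypes changed alike. In 8 cows per genotype, Fert+ cows alone gave 2654 of 13113 genes with p under 0.05 before adjustment and Fert- cows alone 408 of 12948, neither with a call. Without cow 426 the other 7 Fert- cows gave 1317 of 12865 genes, and 3 were called higher and 4 lower. HP was higher at EL in 6 of 8 Fert+ and 7 of 8 Fert- cows.

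The same cows' muscle gives a tissue comparison, in which 3298 of 13909 genes (23.7%) differed between tissues in their LP to EL difference. The difference of liver minus muscle is given for the 12 genes of smallest p in liver, a choice widened from 6 after values were seen. These genes were chosen by their liver difference, which is part of the difference tested. LDHB differed by 1.27 ± 0.21 (adjusted p = 3.40e-05), with medians in muscle of 172 CPM at LP and 128 CPM at EL and higher values at EL in 1 of 16 cows. PC differed by 1.86 ± 0.32 (adjusted p = 5.62e-05), with muscle medians of 14.8 and 8.33 CPM, higher at EL in 3 of 16 cows. AOX1 differed by -1.20 ± 0.25 (adjusted p = 0.000568), with muscle medians of 52.7 and 64.7 CPM, higher at EL in 14 of 16 cows. All 3 thus had opposite signs in the 2 tissues. REEP5 differed by -0.33 ± 0.26 (adjusted p = 0.385), and in muscle its medians were 157 and 361 CPM, higher in 15 of 16 cows. CGREF1 differed by 0.74 ± 0.29 (adjusted p = 0.0629), ACTA2 by -0.62 ± 0.30 (adjusted p = 0.133) and GSTM2 by -1.17 ± 0.51 (adjusted p = 0.0957). Without cow 426 these 3 passed, at adjusted p-values of 0.0259 (CGREF1), 0.0254 (ACTA2) and 0.0282 (GSTM2). HP differed by 2.21 ± 1.39 (adjusted p = 0.262) and TPM2 by 0.25 ± 0.22 (adjusted p = 0.449). SLC17A4, with muscle medians of 0 and 0 CPM, gave no usable error for its difference. CYP11A1 and KIAA1324 had muscle medians of 0 CPM at both time-points, and their differences had SEs of 2.17 and 1.61.

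Across cows, the size of the HP difference was set against that of 4 other genes, with 2-sided permutation tests adjusted over the 4 pairs. Levels in a library are TMM-scaled shares of 1 total, so levels of abundant genes are not fully independent. The highest HP value was 52074 CPM, and the ALB difference ran from -2.90 to 1.37 on the log2 scale. The part of the shared total in these relations was not tested. For ALB the 16 cows gave Pearson's r = -0.81 (permutation p = 0.000370, adjusted 0.000940) and Spearman's rho = -0.75 (permutation p = 0.00121, adjusted 0.00484). Without cows 426 and 3434, the farthest from the median HP difference, r was -0.79, without cow 426 alone -0.71 (permutation p = 0.00490, adjusted 0.0196), within 8 Fert+ cows -0.74 (exact permutation p = 0.0756) and within 8 Fert- cows -0.87 (exact permutation p = 0.00387). For PC the values were Pearson's r = 0.79 (permutation p = 0.000470, adjusted 0.000940) and Spearman's rho = 0.64 (permutation p = 0.00893, adjusted 0.0179). They became r = 0.41 without both and 0.63 without cow 426 (permutation p = 0.0113, adjusted 0.0227). Within genotypes they were r = 0.69 in Fert+ cows (exact permutation p = 0.0752) and 0.90 in Fert- cows (exact permutation p = 0.0262), the latter with Spearman's rho = 0.64 (exact permutation p = 0.0962). For IGF1 they were Pearson's r = -0.63 (permutation p = 0.0112, adjusted 0.0149) and Spearman's rho = -0.41 (permutation p = 0.112, adjusted 0.150). Without cows 426 and 3434 the pooled r was -0.16, and without cow 426 it was -0.34 and no longer past the threshold. Within Fert+ cows r was -0.13 (exact permutation p = 0.755). Within Fert- cows r was -0.90 (exact permutation p = 0.0227), but Spearman's rho was -0.57 (exact permutation p = 0.151). Without their farthest cows, 426 and 164, r was -0.68. For the other genes the same step within Fert- cows gave -0.62 for ALB, 0.64 for PC and 0.45 for PDK4, and within Fert+ cows, without cows 3434 and 430, -0.72 for ALB, 0.86 for PC, 0.28 for IGF1 and -0.59 for PDK4. PDK4 gave Pearson's r = 0.14 (permutation p = 0.623, adjusted 0.623) and Spearman's rho = 0.01 (permutation p = 0.978, adjusted 0.978), with r = -0.36 without the 2 farthest cows, -0.56 in Fert+ cows (exact permutation p = 0.113) and 0.66 in Fert- cows (exact permutation p = 0.132).

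**Figure D5:**
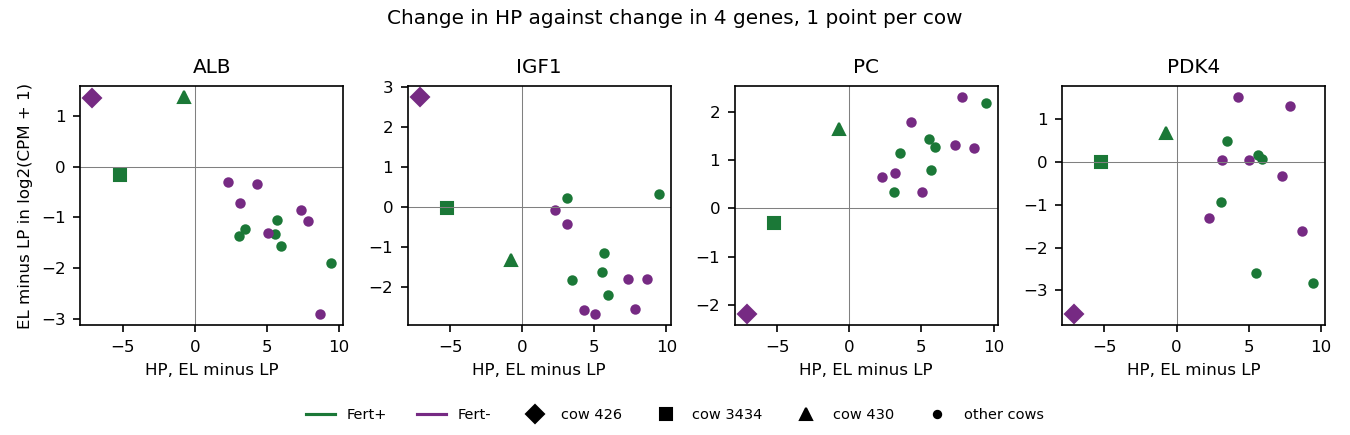
EL minus LP difference in log2(CPM + 1) of ALB, IGF1, PC and PDK4 (vertical axes) against that of HP (horizontal axes), 1 point per cow, coloured by genotype. Cow 426 (diamonds) lies at an end of each panel, and ALB keeps r = -0.79 without cows 426 and 3434, against -0.16 for IGF1.

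Cows also differed more from each other at EL than at LP. The SD over 16 cows of log2(CPM + 1) was larger at EL for 10102 of 13053 genes (77.4%), with a median SD of 0.25 at LP and 0.333 at EL. Without cows 3847 and 164, which held the extreme EL values of several lists, it was larger for 8307 genes (63.6%), with median SDs of 0.248 and 0.278. Genes are not independent replicates, and no test was made of this difference.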

How the data were processed

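Liver RNA of 16 cows was sequenced as polyadenylated RNA in read pairs. The deposited values are raw counts of read pairs per Ensembl70 gene (UMD_3.1, 24616 genes), 1 set per library. Per the study's methods, the authors used Trimmomatic for trimming, STAR for alignment, Samtools to retain properly paired reads and featureCounts for counting, and per the labels base calls came from CASAVA 1.8. How strand and pairs matching several genes were counted could alter levels of overlapping and near-identical genes. Symbols came from pairs of identifier and symbol in the study's supplementary tables, a subset that favours genes the study listed and abundant genes. 33 symbols stood on more than 1 tested identifier. Tables over the whole series (96 columns without sample names) were not used.

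Counts were filtered with filterByExpr, scaled with TMM factors (0.815 to 1.17) and tested, 2-sided, with the quasi-likelihood test of edgeR 4.0.16 (robust, cow and time-point as terms, R 4.3.3) with Benjamini-Hochberg adjustment at 0.05 over all genes. CPM are counts relative to library totals after TMM scaling. Adjusted p-values in the text are from this test unless another is named. Cow pairs the libraries because both came from the same animal. The deviations of its 2 libraries from the time-point means correlated at -0.248 (cow 426) to 0.511. DESeq2 1.42.0 and limma 3.58.1 were alternatives. Permutation tests used 100000 resamples, or all pairings with 8 cows, in Python with scipy. On simulated counts for 13014 genes, edgeR recovered 100 of 100 genes changed 2-fold and 96 of 100 changed 4-fold. It made 10 false calls there, and DESeq2 made 41. In the real counts of 16 cows the same edgeR test called 0 of 13053 genes. HP, for which cow 426 differed in the opposite direction, was not called at a log2 fold change of 4.46 ± 1.16. Recovery on simulated counts therefore does not show that the test finds 2-fold changes in the real counts. The chi-square per gene of the 112 library pairs of the same time-point and genotype was at least 34.5, and none of these pairs was a copy. Pairs across time-points or genotypes were not compared. P-values of the main test rest on how much the EL minus LP difference varied between cows, since cow is a term. Intervals from counting alone were not used.

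The named genes were (a) the 6 of smallest p with a symbol in each direction, (b) the 6 of largest log2 fold change in each direction among called genes of at least 5 CPM with the same direction in at least 14 cows, (c) the 3 largest increases and decreases in mean CPM among called genes, (d) up to 4 of each of 23 lists, called genes first and otherwise the most abundant, and (e) HP, ALB, IGF1, PC and PDK4. Since no gene was called in 16 cows, parts (a) to (d) were also applied to the cows without 426, a choice made after values were seen, as was naming further list members. The comparison, the gene lists and the 10 marker lists were chosen with earlier results of these data known. Some list members are not reported here by name.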

Additional observations from a re-analysis of the deposited data

Results flagged for a closer look

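Of the 12 genes of smallest p in liver, LDHB, PC and AOX1 differed between liver and muscle of the same cows in their LP to EL difference. The edgeR interaction test over 16 cows was used. In it 23.7% of all genes differed, and the share among the 12 was near that. The 12 were chosen by their liver difference, which is part of the difference tested, so these adjusted p-values are no independent evidence. LDHB had a log2 fold change of 0.71 ± 0.19 in liver and -0.50 ± 0.08 in muscle, a difference of 1.27 ± 0.21 (adjusted p = 3.40e-05), and 1.42 ± 0.14 without cow 426. PC had a log2 fold change of 0.97 ± 0.25 in liver and -0.83 ± 0.17 in muscle, a difference of 1.86 ± 0.32 (adjusted p = 5.62e-05), and 1.93 ± 0.25 without cow 426. AOX1 had a log2 fold change of -1.02 ± 0.22 in liver and 0.24 ± 0.09 in muscle, a difference of -1.20 ± 0.25 (adjusted p = 0.000568), and -1.33 ± 0.22 without cow 426. LDHB was higher at EL in 14 of 16 cows in liver and 1 in muscle, PC in 14 and 3, and AOX1 in 3 and 14. The other 9 had adjusted p-values of at least 0.0629 (CGREF1) in 16 cows.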

How the results depend on the processing

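With all 16 cows, 0 genes were called in either direction with RLE, upper-quartile or library-total scaling, without a gene filter or with a mean of at least 1 CPM, without robust estimation, with limma voom, against a fold of 1.5, in either genotype alone, without the cows with a library holding the 19 genes, with those libraries marked by a term, with an exact signed-rank test (added), and with no replicate block, that is with the pairing by cow left out (0 higher, 0 lower). Calls higher and lower at EL were 160 and 288 with DESeq2, 374 and 524 with 1 common dispersion, 142 and 190 with all 48 liver libraries in the fit, and 321 and 450 with voom and library weights (added). Leaving out cows in turn gave 0 to 389 higher and 0 to 446 lower, where values above 1 came only from fits without cow 426. In settings chosen after seeing the data, the calls without cow 426 were 265 and 329 with RLE factors, 214 and 435 with upper-quartile factors, 183 and 192 with library totals, 206 and 229 without a gene filter, 423 and 213 with no replicate block, 609 and 696 with DESeq2, 351 and 397 with voom, 573 and 754 with 1 common dispersion, 291 and 405 with the signed-rank test, 259 and 361 with the libraries holding the 19 genes marked by a term, 33 and 40 without the cows they came from, 3 and 4 in the other Fert- cows, and 0 and 2 against a fold of 1.5. Fewer cows enter some of these fits, and otherwise the cause was not tested. The genotype interaction gave 0 calls under its alternatives, including no replicate block. For the tissue interaction the counts stayed within 1.5 times of 1880 and 1418 (1759 and 1303 with no replicate block). Of the 12 genes of smallest p, ALB, IGF1 and HP, all kept their direction under every setting, and PDK4 turned to 0.029 with the signed-rank test, and without cow 426 to 0.052 with it and 0.020 with no replicate block. Over settings with cow 426 the log2 fold change of HP ran from 1.76 to 4.83 and that of KIAA1324 from -2.57 to -0.64, and the other 13 genes moved by less than 1.5 times in fold. With upper-quartile factors the median of all genes moved to -0.029, of genes with a symbol to -0.034 and of the 2 clock genes to -0.0084. Between HP and PDK4 r turned to -0.31 without cow 426, and between HP and IGF1 it was -0.34, no longer past the threshold. Pseudocounts of 0.1 and 10 changed no call among the 4 relations. The biological coefficient of variation was 28.6% at total counts of at least 14966847. This value leaves out counting error, which the model holds as a separate term. The size of that error was not reported for genes near 1 CPM, such as KIAA1324 and PTGDR.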

Other observations

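Cell cycle genes, none of which differed between LP and EL at an unadjusted p under 0.05, differed between cows. At EL cow 996 held the highest level of 12 of 18 and cow 756 the lowest of 16. MKI67, a marker of dividing cells, ran from 1.33 to 32.1 CPM (median 4.07) at LP and from 0.773 to 26.4 CPM (median 5.11) at EL. In the 5 genes of the PPARA and fasting list the highest EL level was that of cow 996 in each, and for PDK4 it was 515 CPM against a next highest of 264 CPM. The lowest EL level of 8 of the 11 fatty acid oxidation genes and of 9 of the 14 lipoprotein genes was that of cow 3847.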
